A study of Rattus norvegicus with 12 samples.

Results

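Kv4 channels carry the fast, transient A-type K+ current that opens below the firing threshold in the soma and dendrites of hippocampal neurons. Their pores are made by Kcnd1 (Kv4.1), Kcnd2 (Kv4.2) and Kcnd3 (Kv4.3). The KChIPs (Kcnip1 to Kcnip4) are Ca2+-binding proteins of the neuronal Ca2+ sensor family that sit on the cytoplasmic side of the pore, raise its surface expression and change its inactivation, and the product of Kcnip3, KChIP3, is also known as calsenilin and as the transcriptional repressor DREAM. DPP6 and DPP10 are single-pass membrane proteins, related to the peptidase DPP4 but without enzyme activity, that traffic the channel and speed its gating. Such channels limit back-propagating action potentials and repetitive firing, so their messenger RNA was examined here after chronic block or rise of activity. These 9 genes were found on the arrays by the gene name that the array files give each probe. That name led to 9 probes, and 1 probe of Kcnip3, named Csen in the files, was added through its RefSeq accession, so that 10 of 41012 probes and 9 of 35716 gene names are described.

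The cells were high-density cultures of dissociated hippocampal neurons taken at E18.5 from Sprague-Dawley rats, which also hold glia and interneurons. At 10 to 13 days in vitro they were kept for 48 h in vehicle (CTL), in 0.5 to 1 μM TTX (tetrodotoxin, a blocker of voltage-gated Na+ channels that silences firing) or in 20 μM BC (bicuculline, a GABA-A receptor blocker that raises firing). The sample labels name 0.1% DMSO as the vehicle, whereas the study names water for the cultures behind the arrays. Each group had 4 RNA samples, each on 1 one-color Agilent whole rat genome array, and neither the labels nor the methods say if separate cultures were used. The p-values therefore cover only the spread among the samples of a group, which could be technical. A level is given below as the quantile-normalized log2 signal, in the order of replicates 1 to 4, and levels are compared only within a probe. The 12 arrays lay on 4 slides, each with 1 array of every group, and 74.1 to 78.1% of the probes on an array were well above background. After the group means were removed, arrays on slides 1 and 3 deviated together, and so did those on slides 2 and 4 (correlation 0.20 to 0.41 within these sets of slides and -0.39 to -0.20 between them), so differences within a slide are given where this matters. Pan-neuronal markers were bright on every array (summed signal 271000 to 350000) and microglial ones were dim (128 to 196), with 4 of 10 probes well above background on no array and 3 on all.

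The probes were 60 bases long. Sequences are shown for probes of Kcnip1, Kcnip2 and Kcnip3, and not for Kcnip4. The Kcnip1 probes must be told apart to read their values, and a KChIP2 probe aligns with them in part. A further probe, listed under a transcript identifier and described in the files as KChIP1, maps to chr10:18562052-18562111 on the minus strand of rn4. The probe that carries the name Kcnip1 has no rn4 position in the files. A further KChIP2 probe is named Kchip2, an older symbol. These further probes are described apart and are in no count of the 10. In the Kcnip1 pair, capitals mark the bases at which the probes differ from each other where they align. In the Kchip2 probe, capitals mark the bases that differ from Kcnip1 probe A_44_P191742.
Kcnip1 probe A_44_P191742: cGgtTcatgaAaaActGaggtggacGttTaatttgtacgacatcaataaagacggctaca
Kcnip1 probe A_44_P499954: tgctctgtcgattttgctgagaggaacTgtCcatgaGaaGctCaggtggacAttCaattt
Kchip2 probe A_44_P144288: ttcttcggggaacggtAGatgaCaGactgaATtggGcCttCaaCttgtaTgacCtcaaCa
Kcnip2 probe A_44_P468380: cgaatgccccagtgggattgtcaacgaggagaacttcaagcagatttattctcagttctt
Kcnip3 probe A_44_P231583: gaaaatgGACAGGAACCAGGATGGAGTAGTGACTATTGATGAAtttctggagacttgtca
The Kcnip1 probes align over 34 bases, of which 27 are identical. All 7 differences fall on the third base of a codon in the only reading frame of each probe that has no stop, and the 10 whole codons compared encode the same residues. Thus the pair reads the same stretch of protein with different codons, and a single transcript cannot match both without mismatches. Against A_44_P191742 the Kchip2 probe has 35 of 48 bases identical and encodes the same residue at 9 of 15 codons. In the Kcnip3 probe, capitals mark the 12 codons of an EF-hand Ca2+-binding loop, found by translating its only stop-free frame, and the probe spans an intron between chr3:114961933-114962584 of rn4 on the minus strand. The Kcnip2 probe also spans an intron, between chr1:251011241-251011585 on the minus strand.

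Blocking activity with TTX lowered Kcnip1 and Kcnip3, while the pore and DPP genes did not pass the test. Of the 10 probes, 2 were called lower and 0 higher (limma, adjusted p under 0.05 and a change of at least 1.5-fold in either direction), against 2.74% of all probes called lower and 1.45% called higher. At an unadjusted p under 0.05 there were 5 of 10, against 21.9% of all probes. The median log2 difference of the 10 probes was 0.05, against 0.013 over all probes, and 5 were negative, with a range from -0.93 to 0.41. In 3 of 10 probes (Kcnip1, Kcnip3 and Kcnip4) every TTX array lay under every CTL array, against 8.21% of all probes.

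**Figure D1:**
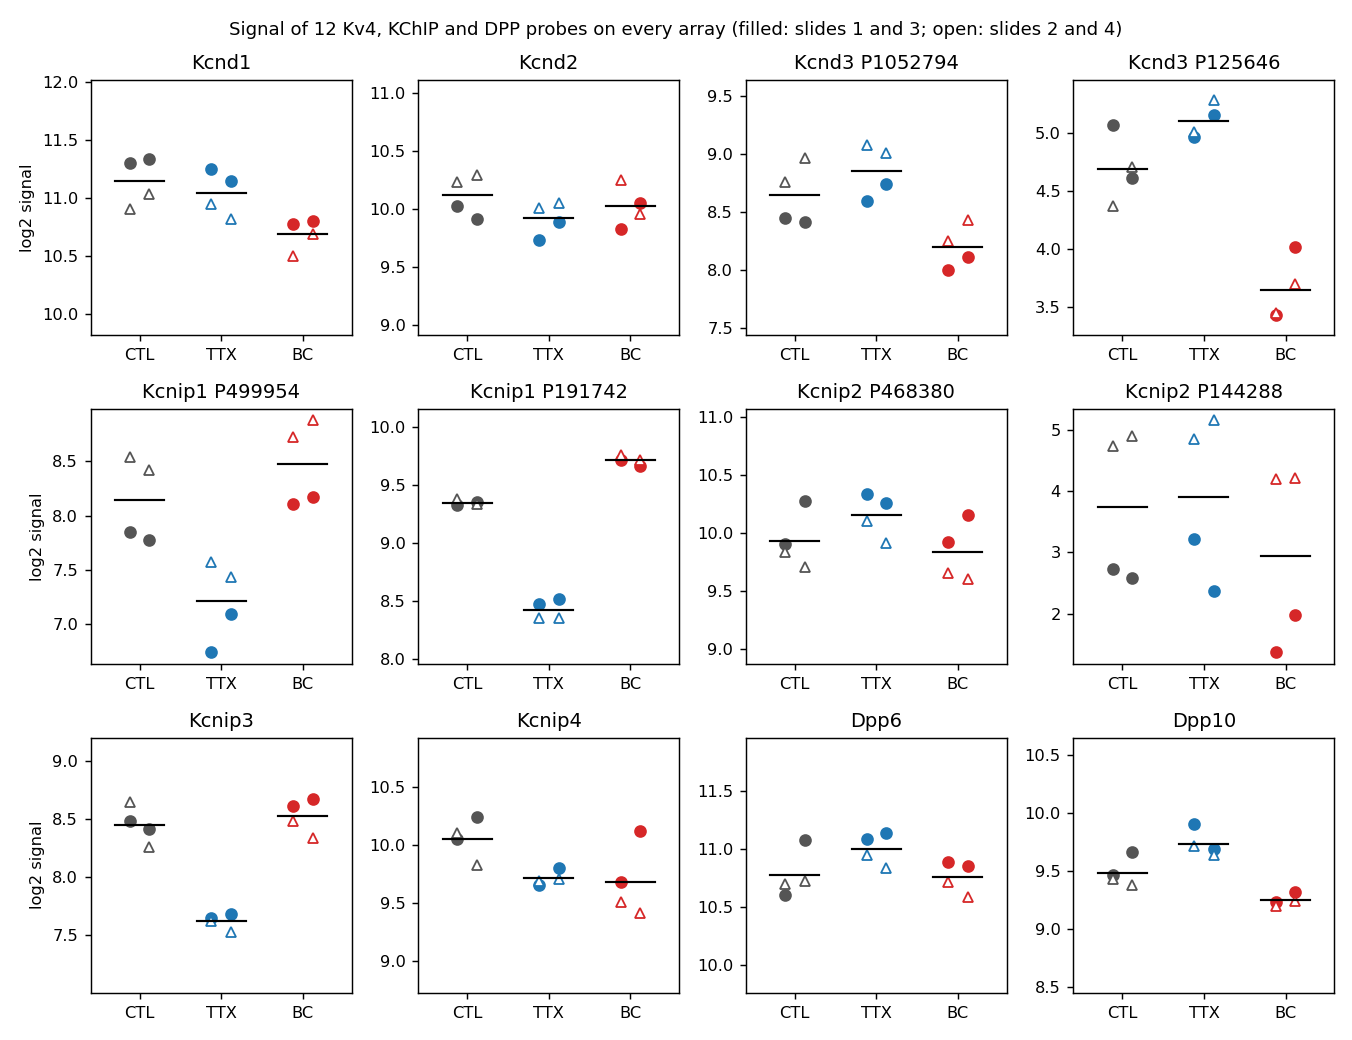
Log2 signal (y axis) of each Kv4, KChIP and DPP probe on every array of CTL, TTX and BC (x axis), with a line at the group mean. Filled circles are arrays on slides 1 and 3 and open triangles those on slides 2 and 4. The 4 TTX arrays sit under all CTL and BC arrays for both Kcnip1 probes and for Kcnip3, and the 4 BC arrays sit lowest for Kcnd3 probe A_44_P125646.

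Kcnip1 encodes KChIP1, a KChIP that is prominent in GABAergic interneurons. Its named probe read 7.85, 7.77, 8.54 and 8.42 in CTL and 7.10, 6.74, 7.44 and 7.57 in TTX. The groups did not overlap, but within each group the arrays on slides 2 and 4 were brighter than those on slides 1 and 3. The probe was lower in TTX by 0.93 on the log2 scale (log2 difference -0.93, SE 0.253), a 1.91-fold difference, with an adjusted p of 0.043 in limma. Within slides 1 to 4 the log2 differences were -1.10, -0.96, -0.67 and -0.98. With the slide set as a block the SE became 0.0789 and the adjusted p 7.69e-05, and with the slide as a block 0.00054. The adjusted p was 0.0457 with arrays of a slide set averaged and 0.0858 with the slide set within a group as a random block. The slide sets were drawn from how these same arrays deviate together, so the lower SE with the slide set block adds no support. The call is close to the threshold without a slide or slide set term. It was also lost when CTL replicate 1, 3 or 4, BC replicate 2 or 4, or TTX replicate 1, 2 or 3 was left out (8 of 12 arrays, adjusted p 0.0501 to 0.118, log2 difference -1.03 to -0.77). With the replicate number as a block it was lost in the fit of all groups (adjusted p = 0.108) but held in a fit of TTX and CTL alone (adjusted p = 0.0147).

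The second Kcnip1 probe, A_44_P191742, gave nearly the same difference with far less spread. It was matched by its description only. Since a single transcript cannot match both probes without mismatches, which of the pair reads Kcnip1 exactly is uncertain. Probe A_44_P191742 read 9.33, 9.35, 9.38 and 9.33 in CTL and 8.52, 8.48, 8.36 and 8.36 in TTX. Every TTX array was thus lower than every CTL array, and the slide sets lay close together. The log2 difference was -0.92 (SE 0.0547, 1.89-fold lower, adjusted p = 6.22e-06), and it remained called under all 28 alternatives tried.

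Kcnip3 encodes KChIP3. Its probe read 8.49, 8.41, 8.65 and 8.26 in CTL and 7.69, 7.65, 7.53 and 7.62 in TTX. The TTX arrays lay within a narrow band below the lowest CTL array. The log2 difference was -0.83 (SE 0.0959, 1.78-fold lower, adjusted p = 4e-04), and within slides it was -0.84, -1.03, -0.73 and -0.73. The call was lost in 1 of 28 alternatives, in which same-group arrays within a slide set were averaged (adjusted p = 0.0562).

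Among the other KChIPs, Kcnip4, whose isoforms include one that removes fast inactivation from the channel, read 10.05, 10.24, 10.10 and 9.82 in CTL and 9.80, 9.65, 9.70 and 9.68 in TTX. The groups just failed to touch, and the log2 difference of -0.34 (SE 0.143, 95% confidence interval -0.66 to -0.02) did not pass (adjusted p = 0.189). Kcnip2, which encodes the KChIP best known from the heart, read 9.90, 10.28, 9.84 and 9.71 in CTL and 10.26, 10.34, 9.91 and 10.11 in TTX, so that the groups overlapped. Its log2 difference was 0.22 (interval -0.12 to 0.57, adjusted p = 0.491). The dim Kchip2 probe was well above background on 2 of 4 arrays of each group, those on slides 2 and 4, and no fold is given for it.

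For the pore subunits the TTX and CTL arrays overlapped in every probe. Kcnd2, the main dendritic Kv4 pore of pyramidal neurons, read 10.02, 9.91, 10.23 and 10.30 in CTL and 9.89, 9.73, 10.05 and 10.01 in TTX, with a log2 difference of -0.20 (interval -0.46 to 0.06, adjusted p = 0.386). Kcnd1 differed by -0.10 (interval -0.38 to 0.18, adjusted p = 0.744). The Kcnd3 probes differed by 0.21 (adjusted p = 0.512) and 0.41 (adjusted p = 0.165). Thus neither direction was called for any pore gene, and the intervals of Kcnd1 and Kcnd2 do not reach the fold threshold.

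Both DPP genes had TTX means above CTL. Dpp10 read 9.47, 9.67, 9.44 and 9.38 in CTL and 9.69, 9.91, 9.64 and 9.72 in TTX. The groups overlapped through CTL replicate 2, and the log2 difference of 0.25 (SE 0.0788) had an adjusted p of 0.0769. Dpp6, the partner of most Kv4 channels in pyramidal neurons, differed by 0.22 (interval -0.03 to 0.48, adjusted p = 0.30).

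Markers of GABAergic interneurons moved with Kcnip1 and Kcnip3 in TTX. Of 15 probes of these markers 10 were called lower and 0 higher, against 2.74% and 1.45% of all probes. These markers had a median log2 difference of -1.18, and every one of their probes was well above background on all arrays. Their summed signal was 308000 to 362000 in CTL and 121000 to 132000 in TTX. Gad1 (probe A_44_P536310), an enzyme of GABA synthesis, differed by -1.56 (adjusted p = 8.13e-07), and the peptide gene Sst by -1.69 (adjusted p = 4.47e-06). Of the listed transcription factors of these cells, Dlx1 differed by 0.17 (adjusted p = 0.721) and Dlx2 by 0.14 (adjusted p = 0.768). Lhx6 was called lower (-0.67, adjusted p = 0.0322), and Dlx5 differed by -0.54 (adjusted p = 0.000662), short of the fold threshold. Glutamatergic markers had 2 of 10 probes higher and 0 lower, against 1.45% and 2.74% of all probes. These markers summed to 36600 to 45800 in CTL and 54300 to 61300 in TTX. In RNA from whole cultures, fewer cells of a type and less RNA per cell cannot be told apart, and the part of interneurons in the fall of Kcnip1 and Kcnip3 was not tested.

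**Figure D2:**
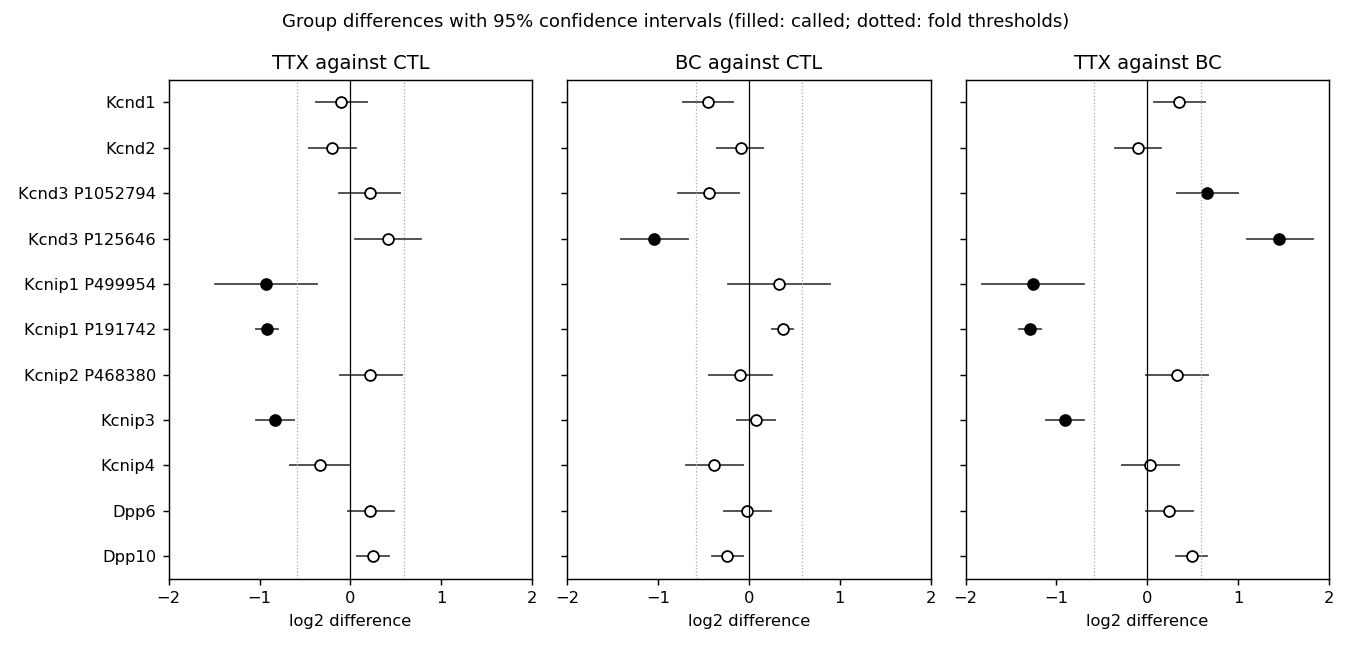
Log2 difference (x axis) of each probe in 3 comparisons, as points with 95% confidence intervals from limma. Filled points were called, open points were not, and dotted lines are the fold thresholds. Both Kcnip1 probes and Kcnip3 lie at -0.93 to -0.83 in TTX against CTL, and Kcnd3 probe A_44_P125646 lies at -1.04 in BC against CTL.

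After activity was raised with BC, 1 of the probes named Kcnd3, whose target is uncertain, was called lower, and Kcnip3 stayed near its CTL level. The call for that probe rested on how background was handled. The comparison of BC with CTL uses the same CTL arrays as the one for TTX. Of the 10 probes 1 was called lower and 0 higher, against 1.52% of all probes lower and 2.12% higher, and 5 had an unadjusted p under 0.05, against 19.4% of all probes. The median log2 difference was -0.17 (over all probes -0.007), and 8 of 10 were negative. In 3 of 10 probes (Kcnd1, Kcnd3 and Dpp10) every BC array lay under every CTL array, against 6.32% of all probes.

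Kcnd3 encodes Kv4.3, a Kv4 pore known from hippocampal interneurons and from the heart. Probe A_44_P125646 read 5.07, 4.61, 4.37 and 4.71 in CTL and 3.69, 3.45, 3.43 and 4.02 in BC. These levels are dim, and BC replicate 2 was not well above background. All BC arrays were lower than all CTL arrays, with a log2 difference of -1.04 (SE 0.165, 2.06-fold lower, adjusted p = 0.00307). The size rested on how background was handled. It was -0.26 with normexp background correction, -0.33 with the median signal and no background subtracted and -0.32 in the deposited log2 values, each with an adjusted p under 0.05 and each short of the fold threshold.

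Kcnd3 probe A_44_P1052794, which is brighter on its own arrays, read 8.44, 8.41, 8.75 and 8.97 in CTL and 8.432, 8.252, 8.003 and 8.108 in BC. The groups overlapped slightly, and the log2 difference of -0.44 (SE 0.154) did not pass (adjusted p = 0.119). Within slides it was -0.44, -0.50, -0.30 and -0.53, and the fold threshold was missed throughout. The adjusted p was 0.00197 with the slide set as a block, but 0.0922 with arrays of a slide set averaged and 0.233 with the random block. As the slide sets were drawn from these same arrays, the lower p with the slide set block adds no support. Both probes thus point down in BC on every slide, by different amounts. The files place them on rn4 at chr3:128924211-128924270 and chr3:128922797-128922856, plus strand, on another chromosome than RefSeq's GRCr8 table gives for Kcnd3, so it is uncertain that they read Kcnd3.

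Kcnd1 encodes Kv4.1. It read 11.30, 11.34, 10.90 and 11.03 in CTL and 10.68, 10.50, 10.78 and 10.80 in BC. No BC array reached the CTL range, and the difference had the same sign on all slides (-0.52, -0.41, -0.54 and -0.35). Its log2 difference of -0.45 (SE 0.126, 1.37-fold lower) had an adjusted p of 0.0533 and was under the fold threshold throughout. With the slide set as a block, which was drawn from these same arrays and so adds no support, the adjusted p was 0.00103. It was 0.0937 with arrays of a slide set averaged and 0.122 with the random block. Kcnd2 differed by -0.09 (interval -0.35 to 0.16, adjusted p = 0.78), with overlapping groups.

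The KChIPs parted in BC. Kcnip1 probe A_44_P191742 read 9.72, 9.76, 9.72 and 9.66 in BC, above all CTL arrays, with a log2 difference of 0.37 (SE 0.0547, 1.29-fold higher). It passed on the adjusted p (0.00213) and not on the fold. The named Kcnip1 probe read 8.88, 8.73, 8.11 and 8.17 in BC and overlapped CTL, with a log2 difference of 0.33 (adjusted p = 0.585), positive on all 4 slides. Kcnip3 read 8.34, 8.49, 8.62 and 8.68 in BC and differed from CTL by 0.08 (interval -0.13 to 0.29, adjusted p = 0.782). Kcnip4 read 9.407, 9.502, 9.681 and 10.116 and differed by -0.38 (adjusted p = 0.163), and Kcnip2 differed by -0.10 (adjusted p = 0.856).

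Of the DPP genes, Dpp10 read 9.24, 9.20, 9.23 and 9.32 in BC, under all CTL arrays. Its log2 difference was -0.24 (SE 0.0788, adjusted p = 0.102). Dpp6 differed by -0.02 (interval -0.27 to 0.24, adjusted p = 0.992). Interneuron markers had 2 of 15 probes higher in BC, Npy (0.80) and Vip (1.09), against 2.12% of all probes. These markers had 0 probes lower, against 1.52%, and a median log2 difference of 0.15. Their summed signal (415000 to 475000) is weighted toward the brightest probes, Npy and Sst, of which Sst differed by 0.06. The sum therefore does not show a general rise of these markers. Glutamatergic markers (summed signal 26300 to 31800) had 2 of 10 probes lower and 0 higher, against 1.52% and 2.12% of all probes. Vascular and fibroblast markers had 3 of 11 higher and 0 lower in BC, against 2.12% of all probes higher, with a median log2 difference of 0.15. These were Dcn (0.87), Lum (0.85) and Cldn5, which was well above background on 6 of 12 arrays only. In TTX, Dcn (-0.62) and Lum (-0.98) were called lower, against 2.74% of all probes, and 0 higher, with a median of 0.02. The summed signal was 8910 to 10500 in CTL, 16100 to 21900 in BC and 6280 to 6660 in TTX. This sum is weighted toward its brightest probes, Lum and Dcn, and so does not show a general change of these markers. The part of these cell types in the Kcnd3 and Kcnip1 values was not tested.

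**Figure D3:**
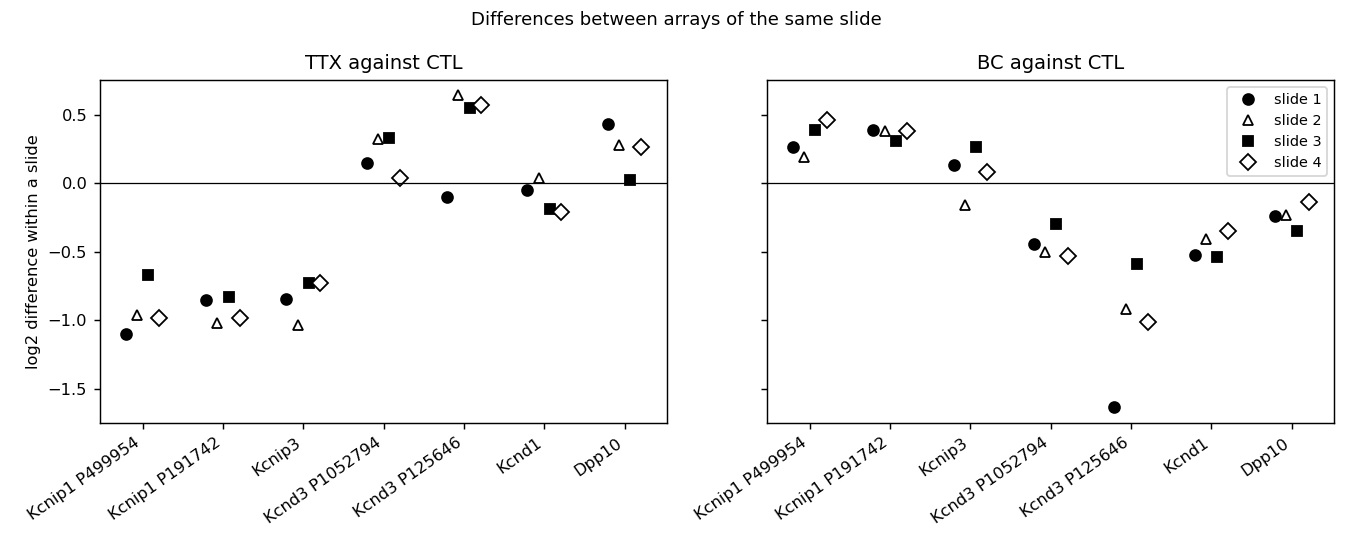
Log2 difference between the TTX and CTL arrays (left) or the BC and CTL arrays (right) of the same slide (y axis) for 7 probes (x axis), with 1 symbol per slide. Both Kcnip1 probes and Kcnip3 are below 0 on all slides in TTX, and Kcnd3, Kcnd1 and Dpp10 are below 0 on all slides in BC.

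Set directly against each other, TTX was lower than BC for Kcnip1 and Kcnip3 and higher for the probes named Kcnd3, whose target is uncertain. Of the 10 probes 2 were lower and 2 higher in TTX than in BC, against 6.22% of all probes lower and 4.95% higher. The named Kcnip1 probe differed by -1.26 (2.39-fold, adjusted p = 0.00414) and A_44_P191742 by -1.29 (2.44-fold, adjusted p = 1.36e-07). Kcnip3 differed by -0.91 (1.88-fold, adjusted p = 5.71e-05). Kcnd3 was higher in TTX in both probes, by 0.66 (1.58-fold, adjusted p = 0.00968) and 1.45 (2.74-fold, adjusted p = 9.57e-05). The size for Kcnd3 again rested on how background was handled. The dim probe, A_44_P125646, differed by 0.36 with normexp and by 0.45 both with the median signal and in the deposited log2 values, and the brighter one by 0.56, 0.55 and 0.53, each short of the fold threshold with an adjusted p under 0.05. The brighter probe also missed the fold threshold without TTX replicate 4 (0.58). Dpp10 was 1.40-fold higher in TTX (log2 difference 0.49, adjusted p = 0.00106), which passed on the p and not on the fold.

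The order of the 3 conditions therefore differed by member. For Kcnip1 it was BC, CTL and TTX from high to low, where BC and CTL differed beyond their spread in probe A_44_P191742 and not in the named probe. For Kcnip3 BC and CTL did not separate, and TTX was lowest. For the probes named Kcnd3 and for Dpp10, the TTX mean was highest and the BC mean lowest, and TTX and CTL overlapped. Kcnd2, Dpp6 and Kcnip2 had overlapping arrays in all 3 comparisons.

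The genes whose signal followed these members most closely over the 12 arrays were ranked by Pearson's r among 28783 probes well above background on every array. The r describes likeness only, since the arrays share groups and slides. For Kcnip1 (probe A_44_P191742) the nearest named genes were Inpp4b (0.996), a phosphoinositide phosphatase, Cort (0.995), the interneuron peptide cortistatin, and Mustn1 (0.995). For Kcnip3 they were Pkib (0.988), an inhibitor of protein kinase A, Septin4 (0.986) and Ache (0.984), acetylcholinesterase. For Kcnd3 (probe A_44_P125646) they were Doc2b (0.975), a Ca2+ sensor of vesicle release, Phactr2 (0.974) and Wnt4 (0.972).

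Genes that work beside Kv4 were followed through 5 lists. A-type subunits outside Kv4 had 2 of 8 probes lower and 0 higher in TTX, and 0 lower and 1 higher in BC. Of all probes, 2.74% were lower and 1.45% higher in TTX, and 1.52% lower and 2.12% higher in BC. Kcna4, which encodes Kv1.4, another A-type pore, differed by -1.07 in TTX (adjusted p = 1.55e-05) and by 0.78 in BC (adjusted p = 0.000135). Kcnab3, a Kv β subunit, differed by -1.11 in TTX (adjusted p = 0.00169). Both probes of Kcnab1, another β subunit, were called only for TTX against BC (-0.85 and -0.70). Unlike Kcnd2, the A-type pore Kcna4 thus passed the test in both treatments, although the difference between these genes was not tested.

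The neuronal Ca2+ sensors are the family to which KChIPs belong. They had 4 of 9 probes lower and 0 higher in TTX (against 2.74% and 1.45% of all probes), with a median log2 difference of -0.66. These 4 were the probes of Vsnl1 (visinin-like 1, -0.79 and -0.66) and Ncald (neurocalcin δ, -1.27 and -1.25). In BC, against 2.12% and 1.52% of all probes, 2 probes of this list were higher and 1 lower. Those were Ncald (0.95 and 0.74) and Hpca, hippocalcin, at -0.59 (adjusted p = 0.005). Against BC, TTX also had a lower call for Rcvrn, which was well above background on 7 of 12 arrays only and gets no fold.

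Other partners and regulators of Kv4 had 0 of 23 probes called in BC, against 1.52% of all probes lower and 2.12% higher. In TTX, against 2.74% of all probes, 2 of the 23 were lower. Akap5, which anchors kinases and phosphatases, was among them and differed by -1.05 (adjusted p = 2.19e-06). Between TTX and BC, probe A_44_P101625 of Camk2a, a kinase that phosphorylates Kv4.2, was higher in TTX (0.72, adjusted p = 0.000374), while the other Camk2a probe, A_44_P296812, was not called (0.44, adjusted p = 0.102). DPP relatives had 0 of 7 probes called in any comparison, and the brightest, Dpp9, differed by -0.39 in TTX (adjusted p = 0.296) and by -0.12 in BC (adjusted p = 0.867). Both Dpp4 probes were higher in TTX than in CTL (0.53 and 0.49, adjusted p 0.0058 and 0.0108 in limma). They passed on the adjusted p and not on the fold, as did Dpp8 probe A_44_P319208 in TTX against BC (0.45, adjusted p = 0.00359). No other probe of this list passed on the adjusted p.

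Presenilins, which bind KChIP3, and genes with DREAM sites had 0 of 7 called against CTL in either treatment. Over all probes, 2.74% were called lower and 1.45% higher in TTX, and 1.52% and 2.12% in BC. Fos in TTX (-0.54, adjusted p = 0.0486) and Crem probe A_44_P149138 in BC (0.52, adjusted p = 0.0109) passed on the adjusted p and not on the fold. Psen2, the brightest, differed by 0.00 in TTX and 0.07 in BC. TTX was lower than BC for Fos (-0.90, adjusted p = 0.00146) and for Crem probe A_44_P149138 (-0.63, adjusted p = 0.00117).

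**Figure D4:**
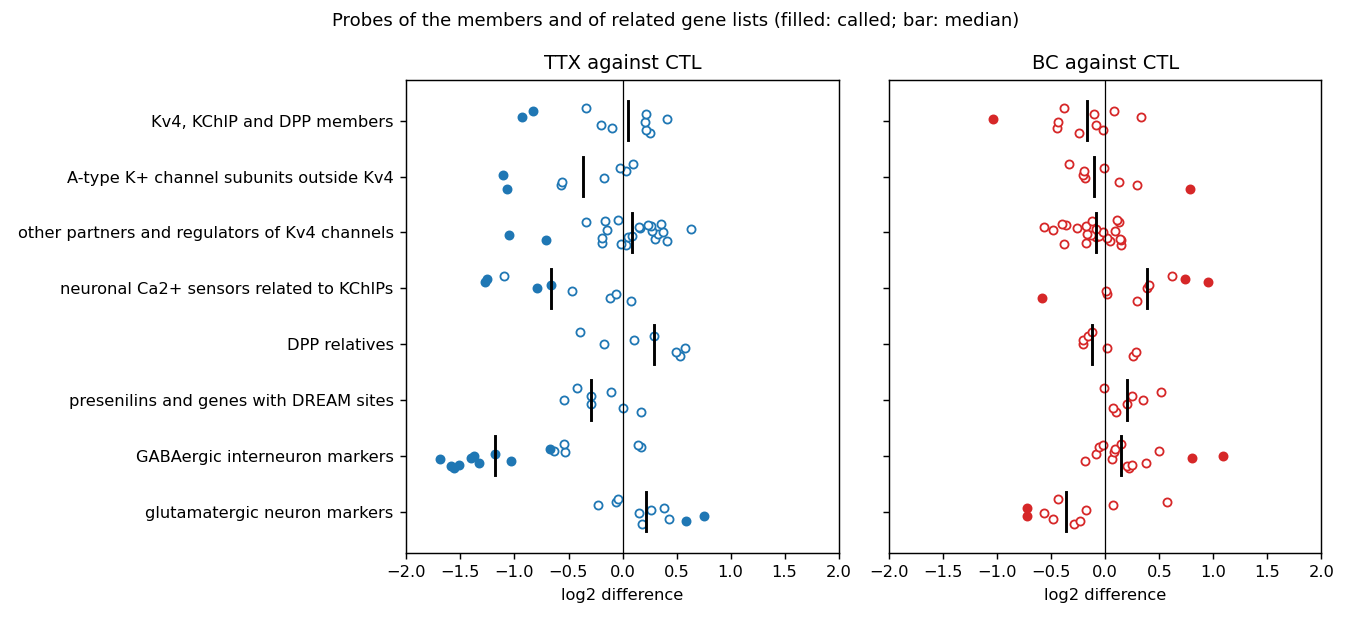
Log2 difference (x axis) of every probe of the Kv4, KChIP and DPP members and of the related gene lists and neuron markers (y axis) in TTX (left) and BC (right) against CTL. Filled points were called, and bars are list medians. The medians in TTX are 0.05 for the members, -0.66 for the neuronal Ca2+ sensors and -1.18 for the interneuron markers.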

How the data were processed

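Total RNA was labelled with Cy3 and hybridized at a core facility to Agilent 4x44K arrays. The authors deposited spot intensities from Feature Extraction 9.5.1.1, background-subtracted and detrended within each array, and quantile-normalized log2 values, in rank the median signal without background subtraction, with 1131 empty values for BC replicate 2. The notes of the submitters name limma.

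Here the log2 of the processed intensities was quantile-normalized across the 12 arrays, with outlier spots left out and no filter. limma 3.58.1 (R 4.3.3) fitted 1 mean per group with eBayes. Calls needed a Benjamini-Hochberg adjusted p under 0.05 and a change of 1.5-fold or more in either direction, as in the methods. Files were read with Python 3.11.15 and data.table (version 1.17.8), and figures drawn with matplotlib 3.10.9. The normalization and fit for TTX against CTL were tested on simulated data with independent noise on each array. Those data held no slide sets, so they cannot speak to their effect on the calls. The number of arrays limits the precision. No processed column went unused for want of a sample.

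Probe positions and sequences are those in the array files (rn4). Names were updated through RefSeq's GRCr8 table. The named genes were all member probes, the called genes of 5 pathway lists or the brightest of a list without calls against CTL, and the 3 best-correlated named genes per called member; some called genes of the list of Kv4 partners and regulators are not reported here. Gad1, Sst, Npy, Vip, Dcn, Lum, Cldn5 and the transcription factors Dlx1, Dlx2, Dlx5 and Lhx6 were chosen among the markers after their values were seen. Dpp4 and Dpp8 were likewise named after their values were seen, because they passed on the adjusted p. The members and the lists were chosen with earlier results of these data known. Slides came from the array files, and the slide sets from how arrays deviate together. By replicate number, deviations correlated at 0.28 to 0.38 between TTX and CTL. Same-numbered arrays of TTX and CTL share a slide set, within which arrays of different groups correlated at 0.20 to 0.41 whatever their number. These values therefore cannot show a pairing by replicate number. Between CTL and BC the correlation was -0.35 to -0.24, and between BC and TTX -0.38 to -0.28.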

Additional observations from a re-analysis of the deposited data

How the results depend on the processing

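Alternatives covered background correction, scaling, a filter on dim probes, slide and replicate terms, the groups fitted, the test, dropping the fold threshold and leaving out each array. The fit of TTX and CTL alone with a replicate block was added after seeing the data. The count in TTX against CTL, 2, fell to 1 with scaling to the 75th percentile, with arrays of a slide set averaged or as a random block, with the replicate block, with only 2 groups in the fit and with the methods' t-test adjusted. In each of these 6 but the averaging, Kcnip1 probe A_44_P499954 was lost, and with averaging Kcnip3 was. It ranged from 1 to 2 when 1 array was left out and was 2 with the replicate block in TTX and CTL alone. The count in BC against CTL, 1, fell to 0 with normexp, the median signal, the deposited log2 values and averaged arrays, where no probe on the array was called, and was 1 to 1 when an array was left out. The count in TTX against BC, 4, fell to 2 with normexp, the median signal and the deposited values, and ranged from 3 to 4 when an array was left out. It was 5 without the fold threshold. The replicate block changed no other call of these counts.

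Of 902 recomputed probe differences 870 kept direction and call, 25 lost the call and 2 gained one, where the fold threshold was dropped. Most were uncalled in the main fit. In this balanced layout the block terms, averaging, fits of 2 groups and the choice of test return the same log2 difference. Leaving out an array of the third group does so too. In those settings the direction could not turn, so its keeping there is no support. The direction turned in 5, all near 0 and uncalled. With 1 array left out, Dpp6 in BC ranged from -0.08 to 0.08 (0.08 without CTL replicate 2 and 0.04 without BC replicate 1) and Kcnip2 in BC from -0.20 to 0.02 (0.02 without CTL replicate 2). Kcnip4 in TTX against BC ranged from -0.06 to 0.18 (-0.06 without BC replicate 1 and -0.02 without BC replicate 2). Signal over background limits the dim Kcnd3 probe and the Kchip2 probe. The cause of the slide sets was not tested.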
